A study of Homo sapiens with 6 samples.

Results

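The 10 genes described here encode actins and the proteins that regulate actin in contractile cells: ACTA2, ACTG2, ACTB, TAGLN, CNN1, CALD1, TPM1, TPM2, MYLK and MYL9. They were found by gene symbol, and all 10 were among the 20824 genes of the deposited table. RNA was sequenced from 21NT cells, a human breast line used as a model of non-invasive ductal carcinoma in situ, after stable transfection of pcDNA3.1 carrying no insert (EV), TBX3iso1 or TBX3iso2, with 2 libraries for each of the 3 lines. TBX3 is a T-box transcription factor, and TBX3iso2 differs from TBX3iso1 by including exon 2a, whose residues fall in the T-box. The comparisons ask which transcripts differ when either isoform is overexpressed. The 3 lines shared their culture conditions, in medium with epidermal growth factor, hydrocortisone, insulin, fetal bovine serum and the selection drug G418. The clones that survived selection were pooled to make each line. The sources used here do not say whether the 2 libraries of a line came from separate cultures, so each p-value measures the spread between libraries, which may be technical.

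Smooth muscle and the myoepithelial cells of the breast contract when myosin II pulls on actin filaments. Calcium and calmodulin activate myosin light chain kinase, which phosphorylates the regulatory light chain of myosin, while tropomyosin, caldesmon and calponin lie along the actin filament and govern its access to myosin. Smooth-muscle alpha-actin and transgelin are widely used as markers of myoepithelial cells and of myofibroblasts. Many of these genes are known to be switched on through CArG boxes, the sites bound by serum response factor (SRF), whose cofactors of the MRTF family respond to the pool of unpolymerized actin.

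The start sites of 7 of the 10 genes were found in the RefSeq promoter table, whose build is GRCh38.p14. ACTB, TAGLN and MYL9 had no entry. The 250 bases upstream of each start were matched exactly, at 1 place each, to GRCh37, the build of the deposited values. The sequences of ACTA2, TPM2, MYLK and CALD1 are shown because these genes differed in both isoform lines, and ACTG2 because its window holds the most CArG boxes of the 7. They are written 5′ to 3′ on the strand of the gene, in lower case, with CArG boxes in capitals.
ACTA2, chr10:90751095-90751344, minus strand: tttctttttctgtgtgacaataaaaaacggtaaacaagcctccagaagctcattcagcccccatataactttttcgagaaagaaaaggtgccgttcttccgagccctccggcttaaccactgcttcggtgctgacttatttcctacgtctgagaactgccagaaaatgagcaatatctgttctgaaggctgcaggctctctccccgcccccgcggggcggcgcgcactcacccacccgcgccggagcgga
TPM2, chr9:35690054-35690303, minus strand: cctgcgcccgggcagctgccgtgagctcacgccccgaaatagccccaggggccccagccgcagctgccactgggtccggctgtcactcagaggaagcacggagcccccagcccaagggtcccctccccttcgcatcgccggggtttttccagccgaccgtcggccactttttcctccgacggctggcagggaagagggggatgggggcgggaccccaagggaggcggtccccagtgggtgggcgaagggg
MYLK, chr3:123339396-123339645, minus strand: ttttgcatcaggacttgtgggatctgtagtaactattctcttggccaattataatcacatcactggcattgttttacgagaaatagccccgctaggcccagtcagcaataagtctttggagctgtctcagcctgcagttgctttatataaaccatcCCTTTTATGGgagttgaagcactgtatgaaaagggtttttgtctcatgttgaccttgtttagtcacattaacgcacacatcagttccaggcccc
CALD1, chr7:134464135-134464384, plus strand: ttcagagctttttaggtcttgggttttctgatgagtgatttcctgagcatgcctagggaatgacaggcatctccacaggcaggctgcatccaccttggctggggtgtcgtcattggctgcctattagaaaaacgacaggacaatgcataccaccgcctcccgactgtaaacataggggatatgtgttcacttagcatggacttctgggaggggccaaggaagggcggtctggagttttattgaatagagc
ACTG2, chr2:74119885-74120134, plus strand: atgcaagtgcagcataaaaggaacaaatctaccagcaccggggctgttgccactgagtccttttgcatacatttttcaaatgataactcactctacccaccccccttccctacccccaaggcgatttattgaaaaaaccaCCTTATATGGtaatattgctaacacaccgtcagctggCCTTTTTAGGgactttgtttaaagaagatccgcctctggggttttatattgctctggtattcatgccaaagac

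Both strands were searched for the CArG box, for AGGTGT, the core of the T-box element that TBX3 binds, and for TATAAA, with overlapping matches counted. CArG boxes lay in the windows of 2 of the 7 genes. ACTG2 had one at 110 and another at 73 bases upstream of its start, and MYLK had one at 94 bases. Of 27305 promoters in the table, 1.14% held a CArG box in a window of this length. AGGTGT was in 0 of the 7 windows and in 9.66% of all promoters. The start listed for MYLK is an internal one, 264 kb downstream of the first annotated exon and 10.5 kb from the 3′ end of the gene, in the part of MYLK from which the short product telokin is known to be transcribed. The starts listed for CALD1 and TPM1 also lie inside the gene, 35.4 kb and 5.87 kb from its annotated 5′ end. For ACTA2 the listed start is at the annotated 5′ end, 56.3 kb from the 3′ end. Any start further inside ACTA2 was not searched, so its window does not describe every promoter of the gene. The RPKM values are 1 per gene and do not separate products of different starts. A motif match is a description of the letters and not of binding, and a window without a match says nothing of the sites elsewhere in the gene.

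Between the lines, the 10 genes did not move as a block. In both isoform lines ACTA2, MYLK and TPM2 fell and CALD1 rose. MYL9 rose with TBX3iso2 and did not pass the test with TBX3iso1, while ACTB, TPM1 and TAGLN did not pass in either. ACTG2 and CNN1, both hallmarks of differentiated smooth muscle, were too low to test. RPKM, the reads of a gene scaled to its transcript length and to the aligned reads of the library, was analysed as log2(RPKM + 0.1). Genes whose 6 libraries averaged under 0.5 RPKM were set aside, and limma was run on the remaining 12805, with 8 of the 10 described here among them. The thresholds for a call were a fold change above 1.5 together with an adjusted p below 0.05. Library totals ran from 43176600 to 54512400 alignments, and with no counts per gene in the table no counting interval could be given.

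In TBX3iso1 against EV, 1 of the 8 tested genes was called higher and 3 lower, where the fit called 7.46% of all tested genes higher and 14.1% lower, 21.5% in all. In TBX3iso2 against EV, 2 were called higher and 3 lower, against 8.94% and 12.3% of all tested genes, 21.2% in all. These 2 comparisons share the EV libraries. The median log2 fold change of the 8 genes was -0.10 and 0.14, where the medians of all tested genes were -0.05 and -0.00. Of the 10 genes, 3 had both TBX3iso1 libraries above both EV libraries, 4 had both below and 3 overlapped, where 34.3% of all tested genes lay above, 44.1% below and 78.4% did not overlap. For TBX3iso2 the counts were 4 above, 4 below and 2 overlapping, where the shares of all tested genes were 37.5% above, 37.2% below and 74.7% together. The counts over 10 genes include ACTG2 and CNN1, which were not tested. CNN1 is among those below in both comparisons, from values at the limit of detection.

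**Figure D1:**
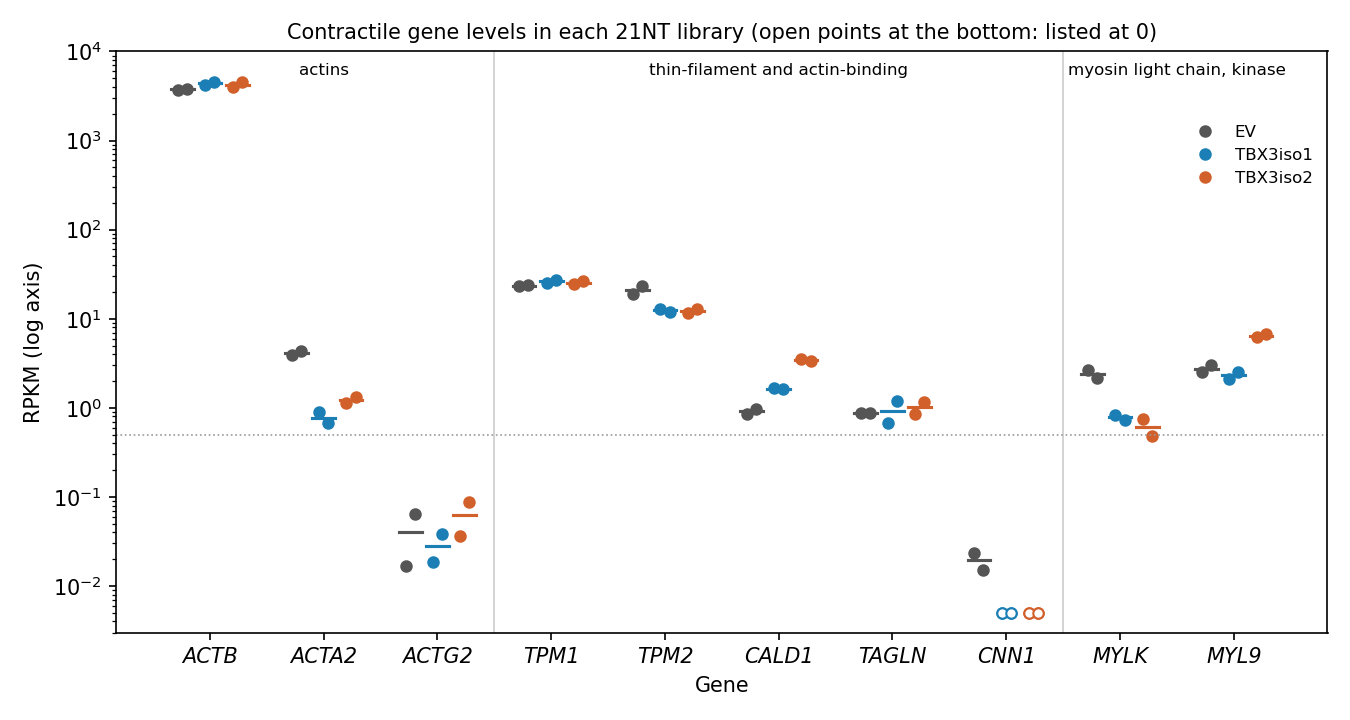
Level of each of the 10 genes in RPKM on a log axis, with 1 point per library and a bar at the mean of each line. The dotted line marks 0.5 RPKM and open points at the bottom are libraries listed at 0. ACTB lies at 3715 RPKM or more in all 6 libraries, ACTG2 and CNN1 lie below 0.1, and ACTA2, MYLK and CALD1 separate the EV libraries from the other lines.

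ACTB encodes cytoplasmic beta-actin (chr7:5566040-5603533, minus strand). It measured 3715 and 3811 RPKM in the EV libraries, 4209 and 4568 in TBX3iso1 and 3949 and 4530 in TBX3iso2. Every isoform library stood above both EV libraries, and ACTB held rank 1 of all genes in each of the 3 lines. The difference did not pass the test, with a log2 fold change of 0.22 (95% interval -0.24 to 0.69, adjusted p = 0.394, limma) for TBX3iso1 and 0.17 (-0.30 to 0.63, adjusted p = 0.52) for TBX3iso2. In the longest ACTB transcript, 7.27% of the words of 51 bases, the read length, also occur in genes elsewhere, among them the processed pseudogene ACTBP2 and the POTE genes that carry an actin copy. Its reads could therefore be divided between loci.

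ACTA2 encodes smooth-muscle alpha-actin (chr10:90694831-90751096, minus strand). It measured 3.92 and 4.34 RPKM in EV, 0.887 and 0.667 in TBX3iso1 and 1.13 and 1.33 in TBX3iso2. The EV libraries were the high ones and neither isoform line overlapped them. The mean fell from 4.13 ± 0.294 (SD, n = 2) to 0.777 ± 0.155 with TBX3iso1 and 1.23 ± 0.143 with TBX3iso2, or to 0.188 and 0.298 of the EV mean. The log2 fold change was -2.28 (SE 0.163, adjusted p = 5.42e-05, limma) for TBX3iso1 and -1.67 (SE 0.163, adjusted p = 0.000213) for TBX3iso2. ACTA2 moved from rank 8555 of all genes in EV to 11928 in TBX3iso1 and 11215 in TBX3iso2. ACTA2 shares exon bases with ACTA2-AS1 and with FAS, both on the opposite strand, and it was not stated whether counting used strand. ENSG00000286116, annotated on the same strand, shares 7.13% of the ACTA2 exon bases, which strand would not separate. ACTA2-AS1 stayed between 0.0111 and 0.0714 RPKM in the 6 libraries. FAS, the death receptor, had log2 fold changes of -0.05 in both comparisons with EV.

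ACTG2, smooth-muscle gamma-actin (chr2:74119441-74146992, plus strand), measured 0.0170 and 0.0646 RPKM in EV, 0.0184 and 0.0379 in TBX3iso1 and 0.0366 and 0.0872 in TBX3iso2. The lines overlapped and none reached 0.1 RPKM. Multiplied by the alignments of each library, these values stood at 1, 3.01, 1.01, 2.05, 2.01 and 4.08 times the lowest, close to whole steps, so a difference between lines was not detectable at this depth. Over the 7 actin genes of the table, ACTB and its close relative ACTG1 together made up 99.9% of the summed RPKM in EV, and ACTA2 made up 0.0893% ± 0.00486 (SD, n = 2), 0.0157% ± 0.00400 with TBX3iso1 and 0.0240% ± 0.000505 with TBX3iso2. The share of ACTA2 was thus highest in both EV libraries. The share of ACTB was 81.4% ± 0.101 in EV, 88.1% ± 0.101 in TBX3iso1 and 82.6% ± 0.123 in TBX3iso2.

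The genes of the thin filament went in different directions. TPM2, beta-tropomyosin (chr9:35681989-35690053, minus strand), measured 19.0 and 23.1 RPKM in EV, 12.9 and 11.9 in TBX3iso1 and 11.6 and 13.0 in TBX3iso2. Both isoform lines lay below EV and overlapped each other. TPM2 fell to 0.588 of the EV mean with TBX3iso1, a log2 fold change of -0.75 (SE 0.111, adjusted p = 0.0014, limma), and to 0.582 with TBX3iso2, -0.77 (SE 0.111, adjusted p = 0.00124).

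TPM1, alpha-tropomyosin (chr15:63334819-63364114, plus strand), measured 23.4 and 23.8 RPKM in EV, 25.2 and 27.4 in TBX3iso1 and 24.4 and 26.5 in TBX3iso2. The isoform libraries were all higher than the EV libraries, by a small margin. The log2 fold change was 0.15 (95% interval -0.03 to 0.34, adjusted p = 0.144, limma) with TBX3iso1 and 0.11 (-0.08 to 0.29, adjusted p = 0.305) with TBX3iso2. TPM1 also shares exon bases with TPM1-AS on the opposite strand.

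The 4 tropomyosin genes, of which TPM3 and TPM4 are abundant in the cytoskeleton of non-muscle cells, shifted in their proportions. TPM2 made up 16.9% ± 2.05 (SD, n = 2) of their summed RPKM in EV, 8.26% ± 0.617 with TBX3iso1 and 8.69% ± 0.621 with TBX3iso2. TPM3 made up 24.4% ± 1.02, 34.8% ± 0.685 and 37.8% ± 0.834, so that the EV libraries had the highest share of TPM2 and the lowest of TPM3. TPM3 itself rose from 30.9 and 29.8 RPKM in EV to 50.8 and 53.9 with TBX3iso1 and 52.3 and 54.5 with TBX3iso2 (log2 fold change 0.78, adjusted p = 0.000159, and 0.81, adjusted p = 0.000136, limma). The sum of the 4 genes was 124 ± 2.12 RPKM in EV, 150 ± 3.33 with TBX3iso1 and 141 ± 1.07 with TBX3iso2, so a lower TPM2 stood beside a higher tropomyosin total.

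CALD1 encodes caldesmon, which inhibits the actin-activated myosin ATPase (chr7:134429003-134655480, plus strand). It measured 0.858 and 0.963 RPKM in EV, 1.67 and 1.61 in TBX3iso1 and 3.54 and 3.33 in TBX3iso2. The 3 lines formed separate steps, with EV lowest and TBX3iso2 highest. CALD1 rose 1.80-fold with TBX3iso1 (log2 fold change 0.79, SE 0.122, adjusted p = 0.00179, limma) and 3.77-fold with TBX3iso2 (1.81, SE 0.122, adjusted p = 4.49e-05). Its low level made the smaller of these changes sensitive to the pseudocount: with 1 RPKM added in place of 0.1, the log2 fold change with TBX3iso1 was 0.47 (adjusted p = 0.0024), under the fold threshold.

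TAGLN encodes transgelin, or SM22-alpha, an actin-bundling protein and an early marker of smooth-muscle differentiation (chr11:117070086-117078180, plus strand). It measured 0.886 and 0.865 RPKM in EV, 0.677 and 1.18 in TBX3iso1 and 0.859 and 1.17 in TBX3iso2. The EV libraries lay within the spread of either isoform line, and the 2 libraries of each isoform line differed from each other more than the lines did. The log2 fold change was 0.03 (95% interval -0.56 to 0.62, adjusted p = 0.927, limma) with TBX3iso1 and 0.18 (-0.41 to 0.77, adjusted p = 0.587) with TBX3iso2, so a difference inside these intervals was not detectable. PCSK7, a proprotein convertase on the opposite strand, shares 34.1% of the annotated TAGLN exon bases, and its log2 fold changes were 0.03 and -0.27. ENSG00000280143, annotated on the same strand as TAGLN, shares 38.1% of them, and strand would not separate reads of those bases.

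The transgelin of these cells was TAGLN2, the form of non-muscle cells, which made up 99.6% ± 0.0351 (SD, n = 2) of the RPKM of the 3 transgelin genes in EV. It measured 268 and 270 RPKM in EV, 510 and 571 in TBX3iso1 and 447 and 501 in TBX3iso2, and it rose in both (log2 fold change 1.00, adjusted p = 0.000379, and 0.81, adjusted p = 0.00093, limma). TAGLN made up 0.324% ± 0.00727 of the 3 genes in EV, 0.169% ± 0.0523 with TBX3iso1 and 0.212% ± 0.0297 with TBX3iso2, a lower share against a higher total at a level of its own that did not pass the test.

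CNN1 encodes calponin 1, which binds actin and is restricted largely to mature smooth muscle and myoepithelium (chr19:11649582-11661138, plus strand). It measured 0.0237 and 0.0150 RPKM in the EV libraries and was listed at 0 in the 2 TBX3iso1 and the 2 TBX3iso2 libraries. The EV values stood at 1.99 and 1 times the lower of them after multiplication by the alignments, so CNN1 was at the limit of detection in every line and no fold is given. Its paralogs CNN2 and CNN3, which are not specific to muscle, together gave 163 ± 1.87 RPKM in EV (SD, n = 2, with CNN1 included in the sum), 156 ± 7.17 in TBX3iso1 and 168 ± 2.77 in TBX3iso2.

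**Figure D2:**
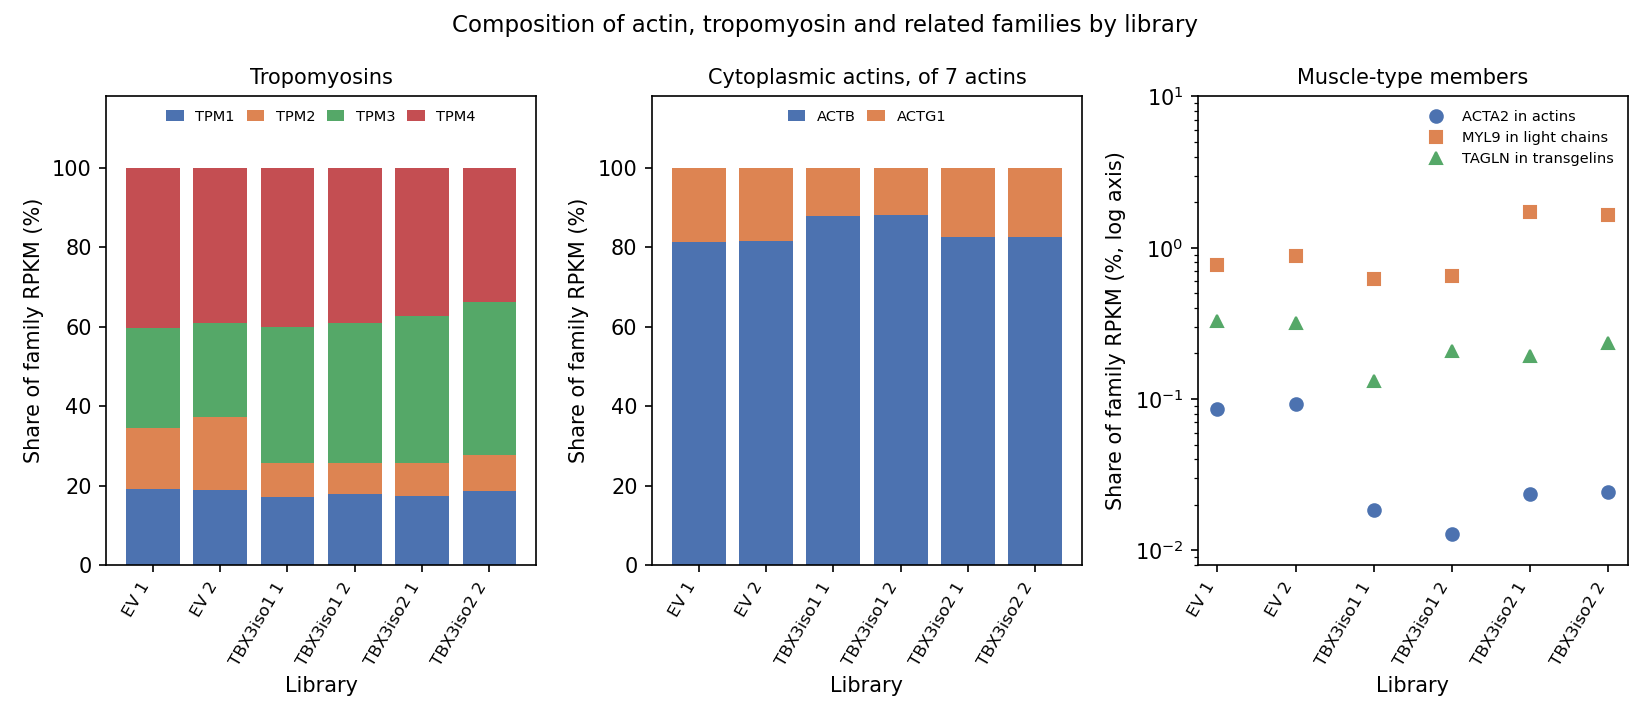
Share of each gene in the summed RPKM of its family, in percent. Each bar or point is 1 library: stacked bars give TPM1, TPM2, TPM3 and TPM4 among the tropomyosins and ACTB and ACTG1 among 7 actins, and points on a log axis give ACTA2 among the actins, MYL9 among 3 regulatory light chains and TAGLN among 3 transgelins. TPM2 averages 16.9% of the tropomyosins in EV and 8.26% and 8.69% in the isoform lines, and MYL9 averages 1.69% of the light chains in TBX3iso2 against 0.829% in EV.

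MYLK encodes myosin light chain kinase, the enzyme that starts contraction (chr3:123328896-123603179, minus strand). It measured 2.65 and 2.16 RPKM in EV, 0.832 and 0.736 in TBX3iso1 and 0.740 and 0.486 in TBX3iso2. The EV libraries stood well above the other 4. MYLK fell to 0.326 of the EV mean with TBX3iso1 (log2 fold change -1.5, SE 0.204, adjusted p = 0.000987, limma) and to 0.255 with TBX3iso2 (-1.83, SE 0.204, adjusted p = 0.000382). The antisense gene MYLK-AS1, which shares 1.94% of the MYLK exon bases, measured 0.931 and 1.5 RPKM in EV, 0.245 and 0.220 in TBX3iso1 and 0.516 and 0.362 in TBX3iso2. It was called lower in both comparisons as well, with log2 fold changes of -1.95 and -1.27, and reads of the shared bases cannot be told apart if strand was not used in counting. Of the 51-base words of the longest MYLK transcript, 1.43% also occur in the pseudogenes MYLKP1 and MYLKP2.

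MYL9 encodes the regulatory light chain of smooth-muscle myosin, a substrate of that kinase (chr20:35169900-35179850, plus strand). It measured 2.51 and 2.99 RPKM in EV, 2.11 and 2.53 in TBX3iso1 and 6.28 and 6.67 in TBX3iso2. EV and TBX3iso1 overlapped, and both TBX3iso2 libraries stood apart above them. With TBX3iso1 the log2 fold change was -0.24 (95% interval -0.54 to 0.07, adjusted p = 0.171, limma). With TBX3iso2 MYL9 rose 2.35-fold (log2 fold change 1.21, SE 0.131, adjusted p = 0.000333). MYL12A and MYL12B, the regulatory light chains of non-muscle myosin, held the rest of the family, and MYL9 made up 0.829% ± 0.0801 (SD, n = 2) of the 3 genes in EV, 0.636% ± 0.0235 with TBX3iso1 and 1.69% ± 0.0712 with TBX3iso2. The summed RPKM of the 3 light chains was 332 ± 9.02, 364 ± 33.2 and 385 ± 32.6, so MYL9 remained a minor light chain in each line. In the TBX3iso2 line the gene values of MYLK and MYL9 therefore moved in opposite directions, MYLK down and MYL9 up. Those of MYLK do not separate the kinase from telokin.

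**Figure D3:**
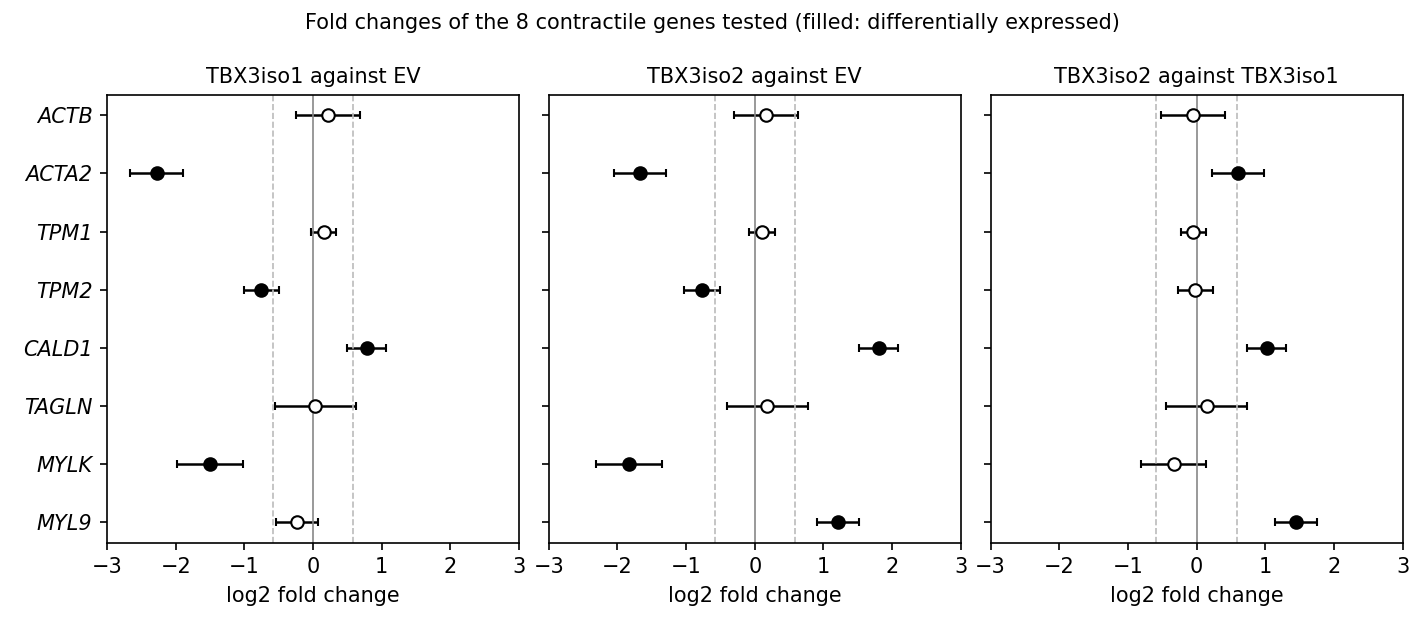
Log2 fold change of the 8 tested genes in TBX3iso1 against EV, TBX3iso2 against EV and TBX3iso2 against TBX3iso1, with 95% intervals from limma. Filled points passed an adjusted p of 0.05 and a fold change of 1.5, whose log2 value is drawn as dashed lines. ACTA2 (-2.28 and -1.67), MYLK (-1.5 and -1.83) and TPM2 (-0.75 and -0.77) lie on the lower side in both comparisons with EV, CALD1 (0.79 and 1.81) on the upper side, and MYL9 on the upper side with TBX3iso2.

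Compared directly, the TBX3iso2 line had higher CALD1, MYL9 and ACTA2 than the TBX3iso1 line. These 3 of the 8 tested genes were called higher and 0 lower, where 3.47% of all tested genes were higher and 2.82% lower, 6.29% in all. MYL9 was 2.79 times as high (log2 fold change 1.45, 95% interval 1.14 to 1.75, adjusted p = 0.000811, limma), and CALD1 2.09 times (1.02, 0.74 to 1.31, adjusted p = 0.00255). ACTA2 was 1.58 times as high (0.61, 0.23 to 0.99, adjusted p = 0.045). The ACTA2 call was lost under median-ratio scaling (0.56, adjusted p = 0.0649) and without the second TBX3iso1 library (0.43, adjusted p = 0.185) or the second TBX3iso2 library (0.50, adjusted p = 0.103), among 7 alternatives that lost it, with adjusted p from 0.0574 to 0.185. The remaining 5 tested genes did not pass. MYLK differed by -0.33 (-0.81 to 0.14, adjusted p = 0.321), TPM2 by -0.02 (-0.27 to 0.24, adjusted p = 0.941), TPM1 by -0.05 (-0.23 to 0.13, adjusted p = 0.727), ACTB by -0.05 (-0.52 to 0.41, adjusted p = 0.891) and TAGLN by 0.15 (-0.44 to 0.74, adjusted p = 0.743). For ACTB, TPM1 and TPM2 these intervals exclude a 1.5-fold difference between the isoform lines, and for MYLK and TAGLN they do not. Of the 10 genes, 3 had both TBX3iso2 libraries above both TBX3iso1 libraries, 0 had both below and 7 overlapped, where 33.4% of all tested genes lay above, 20.1% below and 53.5% did not overlap. The untested ACTG2 and CNN1 are among the 7.

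The order of the levels changed accordingly. In EV it ran from ACTB through TPM1, TPM2 and ACTA2 to MYL9 and MYLK, whose libraries overlapped, then CALD1 and TAGLN, which overlapped, and last ACTG2 and CNN1, which overlapped too. In TBX3iso1, ACTA2 stood at place 8, and its libraries overlapped those of MYLK, which in turn overlapped TAGLN. In TBX3iso2, CALD1 stood at place 5 and separate, above ACTA2 and TAGLN, which overlapped, while MYLK stood at place 8. MYL9 moved from rank 9692 of all genes in EV and 9755 in TBX3iso1 to 6930 in TBX3iso2, and CALD1 from 11963 to 10513 and 8837.

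The other genes of contraction and of the actin cytoskeleton were read from 7 lists with 99 genes, of which 95 were in the table and 76 were tested. In TBX3iso1 against EV 7 of the 76 were called higher and 4 lower, where 7.46% of all tested genes were higher and 14.1% lower, 21.5% in all. In TBX3iso2 against EV 9 were higher and 2 lower, against 8.94% and 12.3% of all tested genes, 21.2% in all. In both, the share called in either direction was below that of all tested genes, and the share called higher was slightly above it. In TBX3iso2 against TBX3iso1 7 were higher, or 3 under median-ratio scaling, and 0 lower. Of all tested genes 3.47% were higher and 2.82% lower there, 6.29% in all. The median log2 fold changes of the 76 were 0.02, 0.12 and 0.10, beside medians of -0.05, -0.00 and 0.05 for all tested genes.

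Among the 4 actins outside the 10 genes, 1 was tested, ACTG1, cytoplasmic gamma-actin. It measured 848 and 862 RPKM in EV, 573 and 614 in TBX3iso1 and 836 and 948 in TBX3iso2. TBX3iso1 was the low line and EV and TBX3iso2 overlapped. The log2 fold change of -0.53 with TBX3iso1 had an adjusted p of 0.0106 (limma) and stayed under the fold threshold, and the difference of 0.59 between the isoform lines was called (adjusted p = 0.02) but lost in 5 alternatives (0.50 to 0.59), median-ratio scaling among them (0.54, adjusted p = 0.0423). Of the 6 paralogs of tropomyosin, calponin and transgelin, 3 rose in both comparisons with EV, TPM3, TAGLN2 and TAGLN3, and 0 fell. Of all tested genes, 7.46% and 8.94% rose in these comparisons and 14.1% and 12.3% fell. TAGLN3, best known from neurons, measured 0.359 and 0.255 RPKM in EV, 0.762 and 0.848 in TBX3iso1 and 1.57 and 1.58 in TBX3iso2, with log2 fold changes of 1.16 and 2.06. The first of these was under the fold threshold with 1 RPKM added.

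Of 18 genes of myosin II and of light-chain phosphorylation, 14 were tested. With TBX3iso1, PPP1R14B, an inhibitor of protein phosphatase 1, rose (log2 fold change 0.67, adjusted p = 0.00274, limma) and PPP1R12B, a targeting subunit of myosin phosphatase, fell (-0.86, adjusted p = 0.0102). These were the 1 higher and 1 lower call of the 14 with TBX3iso1, where 7.46% of all tested genes were higher and 14.1% lower. With TBX3iso2, 0 of the 14 were called, where 21.2% of all tested genes were. MYH9, the main heavy chain of non-muscle myosin II, had log2 fold changes of 0.06 and 0.22. The PPP1R12B call was lost when either EV library was left out (adjusted p = 0.0772 and 0.0534) and without the second TBX3iso1 library (adjusted p = 0.0531), and it was under the fold threshold with 1 RPKM added (-0.51). PPP1R14B was under it without the second TBX3iso1 library (0.56) and under quantile normalization (0.52).

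Of 20 further smooth-muscle genes, 18 were in the table and 8 were tested. With TBX3iso1 0 of the 8 were called, where 21.5% of all tested genes were. With TBX3iso2 4 rose and 0 fell, where 8.94% of all tested genes rose and 12.3% fell. SMTN, or smoothelin, an actin-binding protein of contractile smooth muscle, had 0.96 (adjusted p = 0.000157, limma). FHL2, a LIM-only cofactor, had 0.83 (adjusted p = 0.000333) and PDLIM7 had 0.70 (adjusted p = 0.000335). PDLIM3 also rose, and PDLIM3 and PDLIM7 are both PDZ and LIM domain adaptors of actin filaments. The corresponding values with TBX3iso1 were 0.35 for SMTN, 0.08 for FHL2, 0.34 for PDLIM7 and -0.27 for PDLIM3. SMTN, FHL2 and PDLIM3 were also called higher in TBX3iso2 against TBX3iso1, where the SMTN difference of 0.61 fell under the fold threshold in 5 alternatives (0.53 to 0.58, 0.56 under median-ratio scaling) and the PDLIM3 difference did with 1 RPKM added (0.58). The PDLIM3 call against EV (0.62) was lost with 1 RPKM added (0.42) and without the second EV library (adjusted p = 0.0753). MYH11, the smooth-muscle myosin heavy chain, was listed at 0 in 3 libraries and measured at most 0.00839 RPKM in the others, and DES, the muscle intermediate filament desmin, at most 0.0449. LMOD1, leiomodin 1, measured 0.388 and 0.462 RPKM in EV, 0.0247 and 0.0636 in TBX3iso1 and 0.0613 and 0.0732 in TBX3iso2 and was below the level tested.

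All 21 crosslinkers and focal adhesion genes were tested. FSCN1, the bundling protein fascin of filopodia, rose with both isoforms (0.90, adjusted p = 0.000364, and 0.82, adjusted p = 0.000522, limma), and so did PALLD, palladin (0.63 and 0.73), whose call with TBX3iso1 was lost with 1 RPKM added (0.57). PDLIM5 fell with TBX3iso1 (-1.0, adjusted p = 0.000351) and had -0.38 (adjusted p = 0.0241) with TBX3iso2, under the fold threshold. VCL, vinculin, used as a loading control in the study's blots, had -0.29 and -0.24, and neither was called.

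SRF itself had log2 fold changes of -0.17 and 0.03. Of the 9 genes of SRF and its cofactors 5 were tested. Of these 1, MKL2, which encodes the cofactor MRTF-B, fell with both isoforms (-0.89, adjusted p = 0.00683, and -0.72, adjusted p = 0.0165, limma). Of all tested genes, 14.1% and 12.3% fell in these comparisons. The MKL2 call with TBX3iso2 was lost when either EV library was left out (adjusted p = 0.104 and 0.0747), with no filter (adjusted p = 0.0693) and, by the fold threshold, without the second TBX3iso2 library (-0.48), and that with TBX3iso1 without the first EV library (adjusted p = 0.0578).

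**Figure D4:**
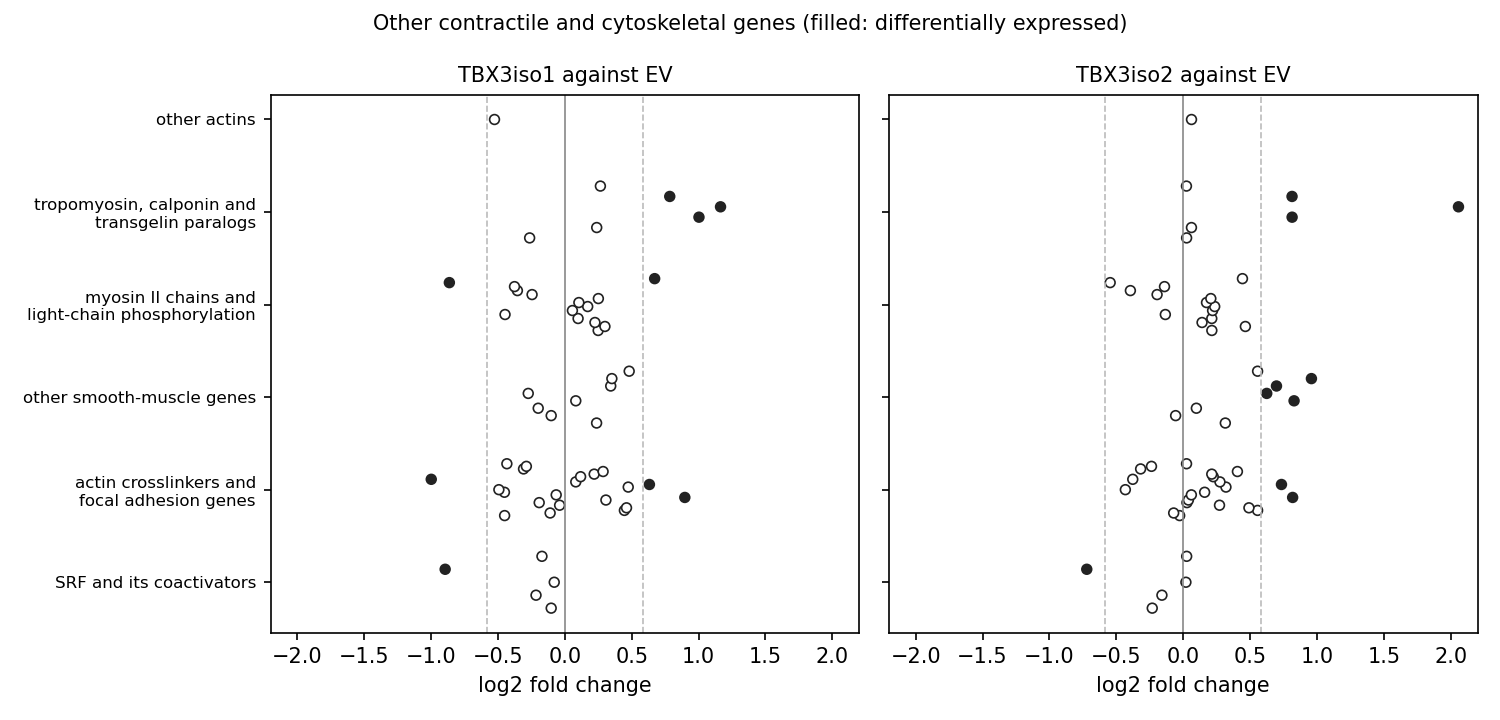
Log2 fold change of each of 55 tested genes in 6 lists of contraction and the actin cytoskeleton, TBX3iso1 against EV in one panel and TBX3iso2 against EV in the other. Filled points passed the test, and dashed lines mark a fold change of 1.5. Most genes lie between the lines. Of the 8 smooth-muscle genes drawn, 4 are filled on the upper side with TBX3iso2 and 0 with TBX3iso1. Of all tested genes, 8.94% and 7.46% were called higher in these comparisons.

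The cells were checked against markers. In bulk RNA, fewer cells of a type and less RNA per cell cannot be told apart. KRT8 and KRT18, keratins of luminal epithelium, measured 541 to 768 and 565 to 802 RPKM over the 6 libraries, and EPCAM, an epithelial adhesion molecule, 165 to 232. Of 12 myoepithelial and basal markers 9 were tested. The summed RPKM of the 12 was 451 to 483 in EV, 548 to 550 in TBX3iso1 and 592 to 613 in TBX3iso2. Most of that sum came from ITGB4, CDH3, LAMB3 and SFN, so it says little of the members at low levels. In the TBX3iso1 line 2 of the 9 rose and 2 fell, where 7.46% of all tested genes rose and 14.1% fell. In the TBX3iso2 line 3 rose and 1 fell, against 8.94% and 12.3% of all tested genes. TP63, the transcription factor that defines basal and myoepithelial cells, measured 3.04 and 3.66 RPKM in EV, 0.330 and 0.243 in TBX3iso1 and 0.332 and 0.267 in TBX3iso2, the same direction as ACTA2 and MYLK. KRT5 (log2 fold change 1.2 and 1.25) and LAMB3 (0.92 and 0.92), also of that list, rose in both. SFN was called higher with TBX3iso2 (0.72, adjusted p = 0.00219, limma) and not with TBX3iso1 (0.39). KRT17 (0.02 and 0.55), JAG1 (0.23 and 0.32), ITGB4 (-0.14 and -0.08) and CDH3 (-0.35 and -0.08) were called in neither. KRT14, the other defining basal keratin, did not exceed 0.0398 RPKM in any library. MME and NGFR, of the same list, were below the level tested. MME averaged 0.864 RPKM in EV, 0.306 in TBX3iso1 and 0.145 in TBX3iso2, and NGFR 0.653, 0.232 and 0.248. OXTR, the oxytocin receptor through which myoepithelial cells contract, was called lower with TBX3iso1 (-0.67) but not with 1 RPKM added (-0.48) or under quantile normalization (-0.46), had 0.33 with TBX3iso2 and was higher in TBX3iso2 than in TBX3iso1 (1.00, adjusted p = 0.00163, limma). The part that a change in these markers has in the values of ACTA2 and MYLK was not tested.

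Of 12 luminal markers 10 were tested. In the TBX3iso1 line 0 of the 10 rose and 3 fell, where 7.46% of all tested genes rose and 14.1% fell. In the TBX3iso2 line 0 rose and 5 fell, against 8.94% and 12.3% of all tested genes. MUC1, a luminal mucin, fell in both (-1.67 and -1.84). The summed RPKM of the 12 was 3407 to 3519 in EV, 2714 to 2969 in TBX3iso1 and 3063 to 3430 in TBX3iso2. Of 10 fibroblast markers 2 were tested. COL1A1, a type I collagen chain, rose in both (0.77 and 0.70), and PDGFRA, a growth factor receptor, fell in both (-1.20 and -6.18). PDGFRA measured 8.08 and 7.98 RPKM in EV, 3.63 and 3.28 in TBX3iso1 and 0.0111 and 0.0132 in TBX3iso2. These 2 genes made up most of the sum of the list. The defining fibroblast genes COL1A2, COL3A1 and PDGFRB stayed at or below 0.354 RPKM in every library, and the list summed to 12.8 to 13.0 RPKM in EV, 11.5 to 12.5 in TBX3iso1 and 7.21 to 7.63 in TBX3iso2. Of 6 endothelial markers 1 was tested, PECAM1, an adhesion molecule, which fell in both (-2.56 and -2.41). The list summed to 7.41 to 7.79, 1.42 to 1.49 and 1.32 to 1.49 RPKM, most of it PECAM1. Of 6 blood cell markers 4 were in the table and 1, CD68, was tested and not called. The list summed to 43.2 to 44.2, 34.2 to 34.3 and 34.0 to 34.1 RPKM, almost all of it CD68. CD68 measured 44.1 and 43.2 RPKM in EV, 34.3 and 34.1 in TBX3iso1 and 34.0 and 34.1 in TBX3iso2. PTPRC, CD3E and LYZ did not exceed 0.0642 RPKM in any library. Striated muscle markers, 3 of 7 in the table, were all below the level tested and summed to 0.0868 to 0.271 RPKM over the 6 libraries.

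TBX3 was higher in both transfected lines, with log2 fold changes of 0.54 (adjusted p = 0.0038, limma), which is under the fold threshold, for TBX3iso1 and 0.97 for TBX3iso2. In TBX3iso2 against TBX3iso1 TBX3 had 0.43 (adjusted p = 0.0275, limma), also under the fold threshold. The part of the TBX3 level in the differences between the isoform lines was not tested. GAPDH, a glycolytic enzyme that served as the study's qPCR reference, was called higher with TBX3iso1 (0.86, adjusted p = 0.00465), a call lost when either EV library was left out (adjusted p = 0.0786 and 0.089) and, by the fold threshold, under quantile normalization (0.52). RPLP0, a ribosomal protein gene, had 0.23 and 0.15.

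The genes whose profile over the 6 libraries was closest to that of a described gene were found by the root-mean-square difference of centred log2 values, over 12804 other tested genes. SYT12 (0.163), BCAM (0.164) and LRG1 (0.173) were nearest to ACTA2. APOE (0.0734), BNC1 (0.0901) and TMEM91 (0.108) were nearest to MYLK. CXCL5 (0.0886), LINC00857 (0.11) and CYP2J2 (0.124) were nearest to CALD1. CXCL5, a neutrophil chemokine, measured 37.7 and 41.4 RPKM in EV, 74.5 and 77.9 in TBX3iso1 and 144 and 129 in TBX3iso2, the same 3 steps as CALD1. SYT12, a synaptotagmin, measured 58.5 and 56.9, 11.1 and 11.6, and 15.0 and 16.4 RPKM in the 3 lines, high in EV, lowest in TBX3iso1 and slightly higher in TBX3iso2, as ACTA2 was.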

How the data were processed

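RNA of 6 libraries, 2 for each of 3 stably transfected 21NT lines, was prepared by the authors as stranded mRNA libraries, sequenced as paired reads of 51 bases, aligned with TopHat in Galaxy to hg19 with up to 10 alignments per read, and summarised in Partek Genomics Suite. Software versions, the annotation and the use of strand in counting are not given in the sources used here. The deposited values are RPKM per gene, computed by the authors, with 1 line of alignments per library. Reads with several alignments can add to genes with near-identical copies.

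Libraries were grouped by their labels. Values were analysed as log2(RPKM + 0.1) with limma 3.58.1 in R 4.3.3, after genes with a mean under 0.5 RPKM were removed, with 1 mean per line, a trended empirical Bayes spread shared by the 6 libraries and Benjamini-Hochberg adjustment over 12805 genes, two-sided. A fold change from limma is on this log2 scale and understates the change of low genes, and ratios of means are of RPKM itself. Between the libraries of a line, log2 differences had an SD of 0.182 in EV, 0.242 in TBX3iso1 and 0.273 in TBX3iso2. The deviations of same-numbered libraries had correlations of 0.22, 0.114 and 0.499 between lines. The labels name no shared batch, and these values do not establish a pairing. A fit with the replicate number as a block was therefore run only as an alternative. The others were pseudocounts of 0.01 and 1 RPKM, no filter or one at a mean of 2 RPKM, median-ratio and quantile scaling, a fit of the compared lines alone, and leaving out each library.

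The 10 genes and all lists were chosen with earlier results of these data known. Genes named from the lists are up to 3 called genes of each list with the largest change against EV, with ACTG1, MYH9, MYH11, SRF, GAPDH, RPLP0, VCL and TBX3 in addition. Others named from the lists (MYL12A, MYL12B, TPM4, CNN2, CNN3, PDLIM3, LMOD1, DES, OXTR, MME, NGFR, ITGB4, CDH3, SFN, KRT17, JAG1, KRT8, KRT14, KRT18, EPCAM, COL1A2, COL3A1, PDGFRB, CD68, PTPRC, CD3E, LYZ and genes that overlap a described gene) were chosen after their values were seen. The genes of 1 of the 7 lists count in the totals and are not reported here. Coordinates are from GENCODE v44 lifted to GRCh37, promoter sequences from RefSeq. Python 3.11.15, pandas 2.3.3 and matplotlib 3.10.9 were used for summaries and figures.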

Additional observations from a re-analysis of the deposited data

How the results depend on the processing

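With 2 libraries per line and RPKM in place of counts, the spread of a single gene rests on the pooled fit, and genes below 0.5 RPKM were not assessed. When a library is left out, the remaining one is assumed to vary like the other lines. Of the recomputed fold changes of the described genes, 261 changed neither sign nor their side of the thresholds (ACTB at 0 under quantile normalization is counted here), 10 changed sign and 8 lost a call. The 8 that lost a call were 7 of ACTA2 between the isoform lines, with adjusted p from 0.0574 to 0.185, and CALD1 with TBX3iso1 at 1 RPKM added.

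The count of described genes higher with TBX3iso1 was 0 with 1 RPKM added and 0 with the filter at 2 RPKM, and that with TBX3iso2 was 1 with the latter filter, where CALD1 and MYLK were not tested. Without a filter 7 genes of the other lists were lower with TBX3iso1 and 4 with TBX3iso2, and leaving out libraries gave 2 to 6 and 1 to 4. Those higher in TBX3iso2 than in TBX3iso1 numbered 3 with 1 RPKM added, 3 under median-ratio and 4 under quantile scaling, and 4 to 6 when libraries were left out. The replicate block gave 1 higher and 3 lower of the described genes with TBX3iso1, 2 and 3 with TBX3iso2 and 3 and 0 between the isoform lines, the counts without the block, and changed no call among the 8.

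Fold changes that reversed did so only when a library was left out, and none of them was called. They ranged from -0.33 to 0.39 (TAGLN) with TBX3iso1, from -0.0241 to 0.39 (TAGLN) with TBX3iso2, and between the isoform lines from -0.15 to 0.0470 (ACTB), -0.21 to 0.51 (TAGLN), -0.11 to 0.0117 (TPM1) and -0.10 to 0.0635 (TPM2). Under quantile normalization ACTB is 0 in each comparison by construction, since it ranks first in every library. Of all tested genes called with TBX3iso1, 1259 were higher and 1313 lower under quantile and 1263 and 1449 under median-ratio scaling, against 955 and 1802, and between the isoform lines 351 and 435, and 351 and 440, against 444 and 361. The cause was not tested.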
